A study of Mus musculus with 13 samples.

Results

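The genes described were 9 regulators of the primitive streak and early mesoderm, T, Eomes, Tbx6, Mixl1, Gsc, Lhx1, Evx1, Mesp1 and Fgf8, chosen by symbol from the 25965 genes of an RNA-seq table. All 9 were found. The cells were female mouse embryonic stem cells (mESCs), F1 of FVB/NJ dams and CAST/EiJ sires, grown in 2i medium, which holds mESCs in a ground state, and differentiated without direction by moving them into serum medium. The 13 libraries were 1 of undifferentiated cells (Day0) and 12 of differentiating cells, harvested on days 4, 5, 6 and 7. The 12 carried a retroviral short hairpin RNA (shRNA), transduced on day 2 and selected with puromycin from day 3. Nons carried a nonsilencing control hairpin, and Smarcc1.6 and Smarcc1.7 each carried a different hairpin against Smarcc1, a core subunit of the BAF chromatin remodelling complex. Each group had 1 library on each day, so days stood in for replicates and p-values measure the spread between these libraries, which may in part be technical. Cells were not sorted by type, and in such bulk libraries fewer cells expressing a gene and less RNA per cell cannot be told apart.

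The primitive streak is the region of the gastrulating mouse embryo through which epiblast cells pass to become mesoderm and definitive endoderm. Nodal, Wnt3 and Bmp4 signalling induces it. T (brachyury) and Eomes are T-box transcription factors of the early streak, and Mixl1, Gsc, Lhx1 and Evx1 are homeobox factors with overlapping domains along it. Mesp1 is a basic helix-loop-helix factor of the earliest mesoderm, Tbx6 a T-box factor of presomitic mesoderm, and Fgf8 the FGF ligand that streak cells need to migrate away. Differentiating mESCs switch on the same genes when part of the culture takes a streak-like path.

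In the control cells all 9 regulators reached their highest level on day 7, and on days 6 and 7 all 9 were lower with both hairpins than in the Nons library of the same day. A gene lower with both hairpins on both days was found in 21.4% of the genes tested, or 16.8% of genes with no filter on low values. On day 7, 8 of the 9, all but Tbx6, were at least 1 log2 unit lower with both hairpins, against 1.01% of tested genes and 2.35% without the filter. On day 6 this held for 6 of the 9, T, Mixl1, Eomes, Mesp1, Evx1 and Fgf8, against 1.49% and 3.55%. The same 6 met it on both days, against 0.313% and 0.564%. Values throughout are log2 CPM, a gene's reads relative to all mapped reads of its library on a fixed scale with both alleles together, and differences are in log2 units unless given as a fold.

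**Figure D1:**
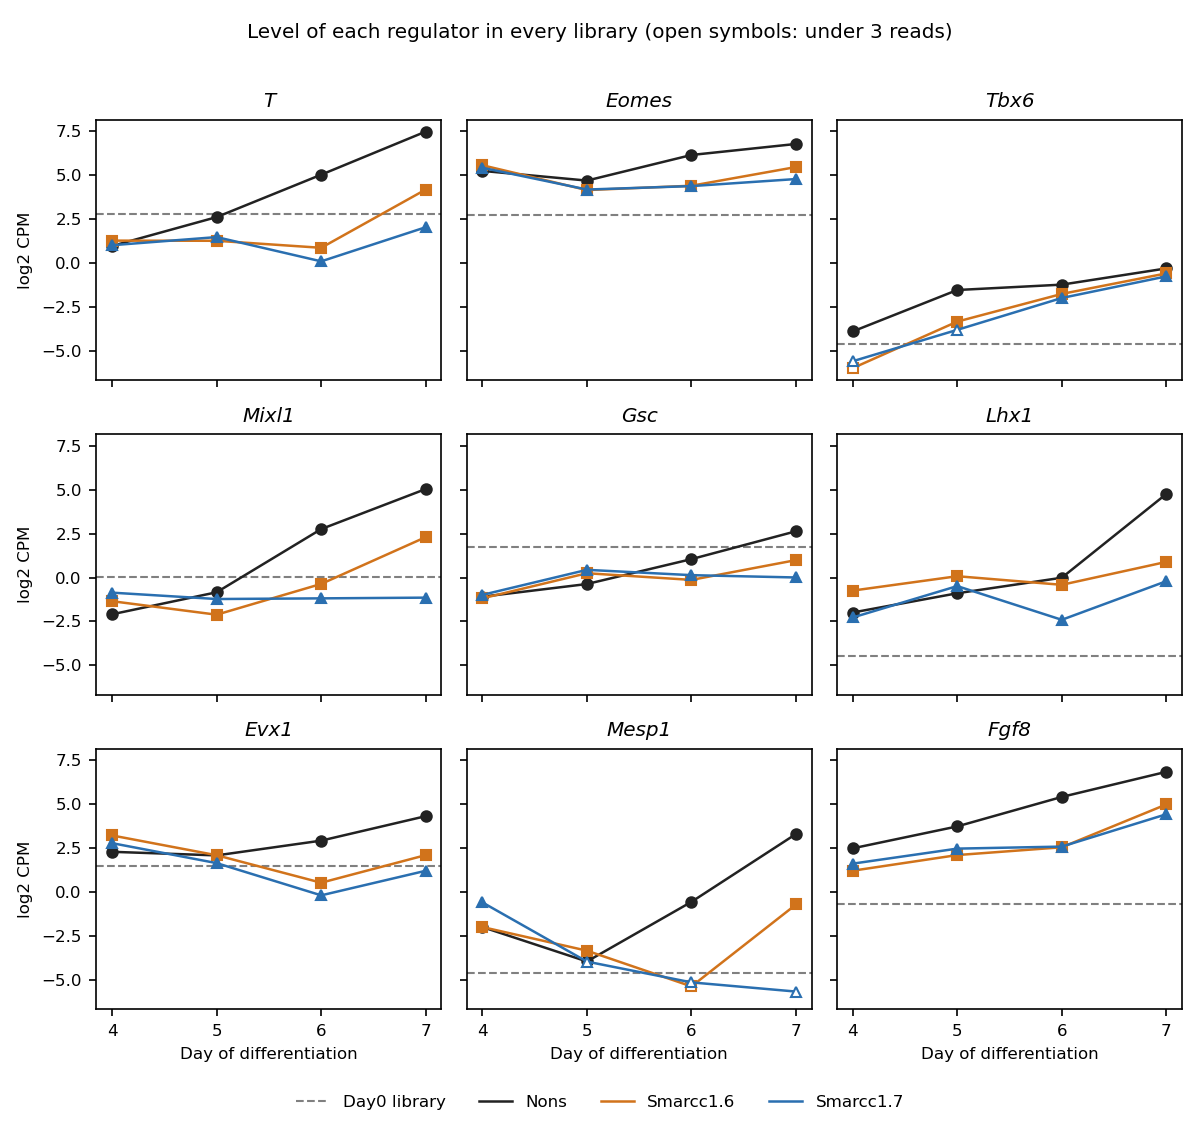
Level of each of the 9 regulators (y axis, log2 CPM) by day of differentiation (x axis) in Nons (black circles), Smarcc1.6 (orange squares) and Smarcc1.7 (blue triangles), 1 library per point, with the Day0 library as a dashed line and open symbols for libraries under 3 reads. Nons is highest on day 7 in all 9 panels, and both hairpin lines lie below it on days 6 and 7; the dashed lines of Mesp1, Tbx6 and Lhx1 stand for 0, 0 and 1 reads.

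The libraries differed in depth and in read assignment. Depth ran from 13993440 to 63548092 mapped reads, which puts 3 reads at a log2 CPM between -2.22 and -4.40. In Day0 and the day 6 libraries 85.3% to 86.5% of mapped reads fell in genes and ribosomal protein genes took 1.76% to 2.19%, against 91.6% to 92.6% and 4.32% to 7.00% in the other 9. Comparisons within a day stay inside 1 of these sets, whereas a difference between day 6 and another day cannot be told apart from that change in assignment.

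The sequences that defined the knockdown are the stretches of Smarcc1 mRNA matched by the hairpins, given 5′ to 3′ on the sense strand in mm10 coordinates. Both lie in coding exons and occur in 4 of 6 protein-coding transcripts. The capitals mark the longest stretch, 21 bases, that lies in the mRNA and whose reverse complement follows in the hairpin. Guide bases beyond this stretch were not examined.
Smarcc1.6 target, chr9:110177473-110177493, exon 13: CAGGATGAAGAAGCAGTTACA
Smarcc1.7 target, chr9:110173912-110173932, exon 11: CAGAAGGAAGAAGATGAGCAA

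Smarcc1 itself was lower in 8 of 8 same-day comparisons. Its log2 CPM was 9.10, 8.87, 8.28 and 7.89 in Nons on days 4 to 7, 7.42, 7.40, 7.28 and 7.28 with Smarcc1.6, and 7.96, 7.78, 7.17 and 7.51 with Smarcc1.7. The mean difference of -1.06 had an exact two-sided permutation p of 0.0123, the smallest that 81 arrangements within days allow. Smarcc1.6 left 43.9% of the Nons level (difference -1.19 ± 0.48, SD, n = 4 days) and Smarcc1.7 52.5% (-0.93 ± 0.37, SD, n = 4 days). The Nons library was lower on day 7 than on day 4. The knockdown difference was -1.41 on day 4 and -0.50 on day 7, and the day 7 value did not pass the test (limma with Benjamini-Hochberg adjustment, adjusted p = 0.238).

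Promoters of 7 of the 9 regulators were in the RefSeq table (GRCm38.p6, 250 bases before to 50 after the start), and Mixl1 and Fgf8 are named only. They were searched on both strands for 4 short motifs, the TCF/LEF cores CTTTGA and CTTTGT through which Wnt signalling acts, the T-box half-site AGGTGTG and the FoxH1 motif TGTGGAT, through which Nodal signalling acts. A TCF/LEF core was in 2 of the 7, T and Mesp1, against 31.2% of 32817 mouse promoters, and the T-box half-site in 2 of the 7, Mesp1 and Evx1, against 5.84%. CTTTGT and TGTGGAT were in none of the 7, against 18.7% and 3.38%. The promoters with a match are shown because T, Eomes and Tbx6 are T-box factors and T is described as a Wnt target, and capitals mark each match. A match is a description of letters and not a binding site.
T promoter, chr17:8434173-8434472, plus strand: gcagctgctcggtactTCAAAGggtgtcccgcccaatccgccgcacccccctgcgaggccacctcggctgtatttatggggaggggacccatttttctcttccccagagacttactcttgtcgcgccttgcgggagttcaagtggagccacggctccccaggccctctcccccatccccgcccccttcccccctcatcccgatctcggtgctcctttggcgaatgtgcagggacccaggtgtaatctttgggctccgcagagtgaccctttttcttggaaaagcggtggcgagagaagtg
Mesp1 promoter, chr7:79793541-79793840, minus strand: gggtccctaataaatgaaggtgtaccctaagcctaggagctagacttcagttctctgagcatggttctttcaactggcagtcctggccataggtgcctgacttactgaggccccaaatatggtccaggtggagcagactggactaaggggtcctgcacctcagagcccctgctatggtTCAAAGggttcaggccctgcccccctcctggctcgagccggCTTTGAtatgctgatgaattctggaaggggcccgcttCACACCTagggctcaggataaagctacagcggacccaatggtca
Evx1 promoter, chr6:52313248-52313547, plus strand: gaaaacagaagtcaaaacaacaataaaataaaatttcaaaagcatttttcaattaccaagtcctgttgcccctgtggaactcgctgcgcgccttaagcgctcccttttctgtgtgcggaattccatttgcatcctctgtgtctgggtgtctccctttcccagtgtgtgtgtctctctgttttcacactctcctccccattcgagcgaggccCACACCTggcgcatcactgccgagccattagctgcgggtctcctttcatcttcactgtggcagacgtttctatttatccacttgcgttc
In T the capitals are CTTTGA read on the minus strand, at bases -234 to -229 from the start. In Mesp1 they are CTTTGA at -31 to -26 and, on the opposite strand, at -72 to -67, and the half-site on the opposite strand at 6 to 12. The RefSeq start of Mesp1 lies inside the gene coordinates given below, and by those coordinates all 3 matches lie within the gene. In Evx1 the half-site is on the opposite strand at -39 to -33. No match overlapped another.

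Only 5 of the 9 regulators, T, Eomes, Gsc, Evx1 and Fgf8, had a mean level of 0 or more on the log2 CPM scale in the 12 differentiating libraries, which was the filter, and entered the main tests. Gsc passed only through Nons, since its mean over the 8 knockdown libraries was below 0. Mixl1, Lhx1, Mesp1 and Tbx6 are given by their values and by the fit without a filter (21816 genes in place of 13406). In the fit of both hairpins against Nons with day as a factor, 3 of the 5 were lower, T, Eomes and Fgf8, beside 11.6% of tested genes called, 4.77% lower and 6.88% higher. In the fit by day, which takes its spread from the 2 hairpins of a day (4 residual degrees of freedom), none of the 5 was called by limma on day 4 (2.60% of tested genes called), where 1, Fgf8, had an unadjusted p under 0.05, Fgf8 was called lower on day 5 (2.82% called lower), 4 of the 5 on day 6 (2.89%) and 5 of the 5 on day 7 (1.53%). The day 7 count includes Gsc, whose entry through Nons alone favours a lower value with knockdown. Without a filter 8 of the 9 were called lower on day 7, all but Tbx6, beside 1.03% of genes. Each of these values rests on 1 Nons library per day, which has no replicate of its own.

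T (chr17:8434423-8442496 in mm10, plus strand, 8 exon blocks) encodes the factor that marks the streak and its mesoderm. Its log2 CPM was 2.78 in Day0 and 0.97, 2.62, 5.03 and 7.49 in Nons on days 4 to 7. The Smarcc1.6 libraries had 1.28, 1.27, 0.87 and 4.19 on the same days. The Smarcc1.7 libraries had 1.02, 1.48, 0.10 and 2.04. The control thus passed its Day0 level by 1 log2 unit on day 6, Smarcc1.6 did so on day 7, and Smarcc1.7 stayed below Day0 throughout. Nons and the hairpins lay close together on day 4 and apart on days 6 and 7, where T was 17.9-fold and 30.6-fold lower on day 6 and 9.86-fold and 43.7-fold lower on day 7 with Smarcc1.6 and Smarcc1.7. The knockdown differences were -4.55 ± 0.64 (SE) on day 6 and -4.38 ± 0.64 on day 7 (limma with Benjamini-Hochberg adjustment, adjusted p = 0.00210 and 0.00221), against 0.17 ± 0.64 on day 4 and -1.24 ± 0.64 on day 5, where the adjusted p was 0.940 and 0.291. Over all days the difference was -2.50 ± 0.67 (limma, adjusted p = 0.0341). That call was lost without day 6, where the difference was -1.82 (adjusted p = 0.202), and without day 5 or day 7, and also without the Nons library of day 5, 6 or 7 alone or a single hairpin library of day 5 or 6.

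Eomes (chr9:118478212-118486132, plus strand) acts beside Nodal in the early streak and is required for definitive endoderm. It was already raised on day 4, at 5.25 in Nons, 5.57 with Smarcc1.6 and 5.43 with Smarcc1.7 against 2.71 in Day0. On days 5, 6 and 7 it was 4.70, 6.16 and 6.79 in Nons, 4.16, 4.40 and 5.47 with Smarcc1.6, and 4.19, 4.38 and 4.79 with Smarcc1.7. All 3 groups dipped from day 4 to day 5 (-1.07 ± 0.36, limma adjusted p = 0.0451, with 12.1% of tested genes called lower), a call lost in 9 of 21 alternatives, after which Nons climbed past its day 4 level and neither hairpin did. On day 6 the knockdown difference was -1.76 ± 0.22 and on day 7 -1.66 ± 0.22 (limma, adjusted p = 0.00102 and 0.00112). On day 4 it was 0.25 ± 0.22 (limma, adjusted p = 0.659). The difference over all days, -0.92 ± 0.26 (limma, adjusted p = 0.0440), lost its call in 17 of 26 alternatives, among them leaving out the Nons library of day 5, 6 or 7 (-1.06, -0.64 and -0.68). A further transcript, Gm33460, shares 2.84% of the exon bases on the opposite strand, and whether reads were counted by strand is not given in the sources used here.

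Tbx6 (chr7:126781483-126785560, plus strand) stayed near the limit of detection. It had 0 reads in Day0, 4, 16, 15 and 24 in Nons on days 4 to 7, 1, 3, 11 and 39 with Smarcc1.6, and 0, 1, 8 and 30 with Smarcc1.7. On the log2 CPM scale it was -1.23 and -0.31 in Nons on days 6 and 7, -1.76 and -0.59 with Smarcc1.6, and -1.99 and -0.76 with Smarcc1.7. Tbx6 rose in every group, and without a filter its change over days was called (limma, adjusted p = 5.56e-05), as was that of 65.3% of genes. Its knockdown difference on day 7 was -0.37 ± 0.71 (limma without a filter, adjusted p = 0.832). On day 5 the Nons level was 3.48 times that of Smarcc1.6 (exact 95% interval 0.997 to 18.7, counting error only).

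Mixl1 (chr1:180693043-180697034, minus strand), a homeobox factor of the streak that Nodal and Bmp4 induce, separated the hairpins from each other on day 7. Its log2 CPM was 0.05 in Day0 and -2.09, -0.84, 2.76 and 5.05 in Nons. It was -1.35, -2.11, -0.36 and 2.31 with Smarcc1.6, and -0.86, -1.22, -1.18 and -1.14 with Smarcc1.7. The control rose from 14 to 980 reads, Smarcc1.6 from 25 to 290, and Smarcc1.7 had 24 reads on day 4 and 23 on day 7. Mixl1 was 6.68-fold lower with Smarcc1.6 and 72.9-fold lower with Smarcc1.7 on day 7, and 8.72-fold and 15.4-fold lower on day 6. Without a filter the day 7 difference was -4.46 ± 1.05 (limma, adjusted p = 0.0341) and the day 6 difference -3.54 ± 1.05 (limma, adjusted p = 0.0863).

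Gsc (chr12:104471209-104473327, minus strand) marks the anterior streak and organizer. Its log2 CPM was 1.75 in Day0 and -1.09, -0.37, 1.05 and 2.64 in Nons. The Smarcc1.6 libraries had -1.18, 0.25, -0.13 and 1.00, and those of Smarcc1.7 -0.98, 0.44, 0.14 and 0.01. Gsc was lower on day 4 than in Day0 in all 3 groups and never passed Day0 by 1 log2 unit. Both hairpins were above Nons on day 5 and below it on days 6 and 7. The day 7 difference was -2.14 ± 0.48 (limma, adjusted p = 0.0229), and it lost its call without the Smarcc1.7 library of that day (-1.64, limma, adjusted p = 0.0821). The difference over all days was -0.62 ± 0.38 (limma, adjusted p = 0.327).

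Lhx1 (chr11:84517977-84526015, minus strand), the LIM homeobox factor of the anterior streak and its mesendoderm, made most of its rise in the control between days 6 and 7. It had 1 read in Day0, and its log2 CPM was -1.99, -0.89, -0.01 and 4.76 in Nons. It was -0.74, 0.08, -0.41 and 0.89 with Smarcc1.6, and -2.27, -0.48, -2.41 and -0.21 with Smarcc1.7. The Nons library went from 35 reads on day 6 to 806 on day 7, while neither hairpin passed 109 reads on any day. That step in Nons lies between single libraries and crosses the change in read assignment. On day 7 Lhx1 was 14.6-fold lower with Smarcc1.6 and 31.4-fold lower with Smarcc1.7 (-4.42 ± 0.87, limma without a filter, adjusted p = 0.0136). On day 6 it was -1.40 ± 0.87 (limma without a filter, adjusted p = 0.493).

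Evx1 (chr6:52313498-52318378, plus strand), an even-skipped homeobox factor of the posterior streak, changed its order between groups during the course. Its log2 CPM was 1.48 in Day0 and 2.30, 2.09, 2.93 and 4.33 in Nons. It was 3.23, 2.10, 0.54 and 2.11 with Smarcc1.6, and 2.79, 1.65, -0.18 and 1.22 with Smarcc1.7. Both hairpins peaked on day 4, above Nons, and had their lowest level on day 6, where Evx1 was 5.27-fold and 8.68-fold below Nons. The knockdown difference was 0.71 ± 0.41 on day 4 (limma, adjusted p = 0.452), -2.76 ± 0.41 on day 6 and -2.67 ± 0.41 on day 7 (limma, adjusted p = 0.00296 and 0.00318). Over all days it was -1.23 ± 0.48 (limma, adjusted p = 0.119). Evx1os, an antisense gene, shares 2.54% of the exon bases, and reads of the pair are told apart only by strand.

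Mesp1 (chr7:79792241-79793788, minus strand) marks nascent mesoderm on its way to heart and vessels. It had 0 reads in Day0, 15, 3, 24 and 295 in Nons, 16, 3, 0 and 36 with Smarcc1.6, and 29, 0, 0 and 1 with Smarcc1.7. Nons passed its day 4 level on days 6 and 7, Smarcc1.6 on day 7 and Smarcc1.7 on no later day. On day 6, with 0 reads in both hairpin libraries, Mesp1 was at least 8.46-fold lower with Smarcc1.6 and at least 7.23-fold lower with Smarcc1.7, taking 3 reads per library as the floor. On day 7 it was 16.2-fold lower with Smarcc1.6, and the ratio for Smarcc1.7, 295 reads against 1, was 505 (exact 95% interval 89.9 to 2.00e+04, counting error only). The fitted day 7 difference was -6.50 ± 1.48 (limma without a filter, adjusted p = 0.0293), with 1 read in the Smarcc1.7 library.

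Fgf8 (chr19:45736798-45742915, minus strand), the only secreted ligand among the 9, was lower with both hairpins on every day. Its log2 CPM was -0.67 in Day0 and 2.49, 3.74, 5.42 and 6.85 in Nons. It was 1.22, 2.11, 2.56 and 5.00 with Smarcc1.6, and 1.62, 2.48, 2.59 and 4.44 with Smarcc1.7. All 3 groups rose from day to day, and the hairpin libraries were 1.83-fold to 7.30-fold below Nons. Of tested genes, 7.10% were lower in 8 of 8 same-day comparisons, and Tbx6 was the other regulator to do so, with 0 or 1 reads in 3 of its hairpin libraries. The difference over all days was -1.88 ± 0.23 (limma, adjusted p = 0.00186). By day it was -1.07, -1.45, -2.85 and -2.14, each ± 0.27, with a limma adjusted p of 0.0624, 0.0140, 2.90e-04 and 8.00e-04. The day 5 call was lost without the Smarcc1.6 library of that day (-1.27, limma, adjusted p = 0.0879).

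**Figure D2:**
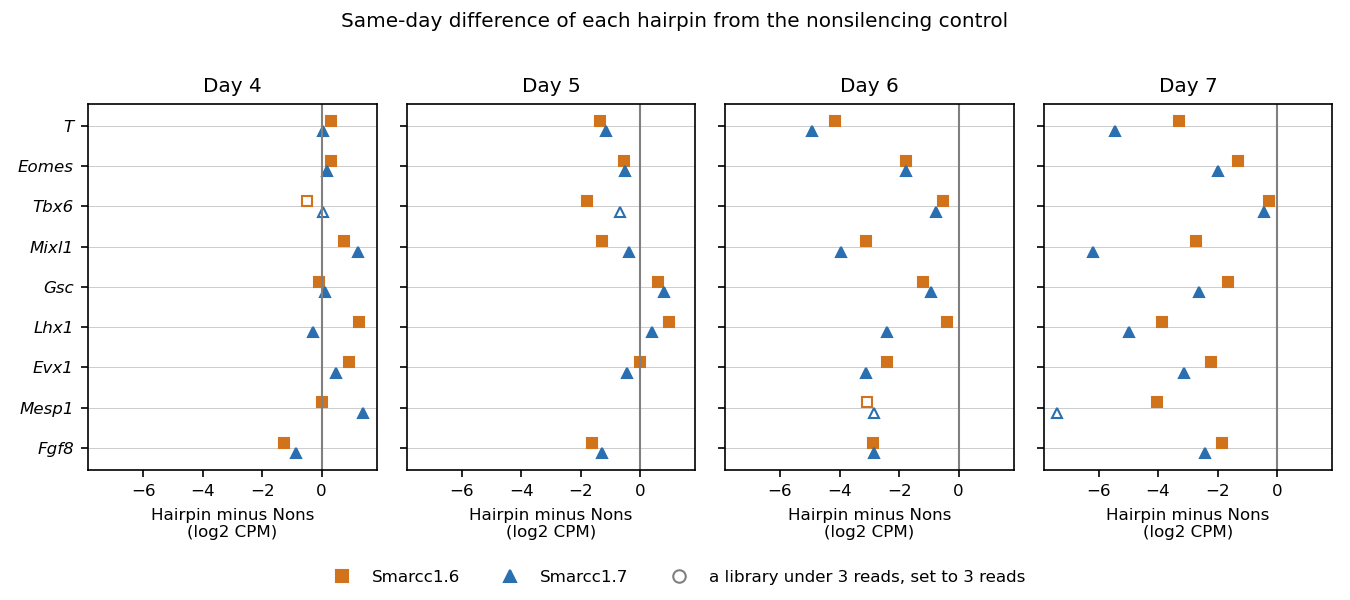
Difference of each hairpin library from the Nons library of the same day (x axis, log2 CPM) for the 9 regulators (rows), with Smarcc1.6 as orange squares and Smarcc1.7 as blue triangles; open symbols hold a library under 3 reads, set to its 3-read level, and pairs with at most 3 reads on both sides are not drawn. The symbols lie on both sides of 0 on days 4 and 5 and left of it for all 9 on days 6 and 7, where T reaches -5.45 and Mixl1 -6.19 with Smarcc1.7.

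Onset in the control began with Eomes and Fgf8. Onset was set as the first day at least 1 log2 unit above Day0, with libraries under 3 reads taken at their 3-read level. In Nons it was day 4 for Eomes and Fgf8, day 5 for Lhx1 and Tbx6, and day 6 for T, Mixl1, Mesp1 and Evx1. With Smarcc1.6, T, Mixl1 and Mesp1 reached it on day 7. With Smarcc1.7, T and Mixl1 did not reach it by day 7, and Mesp1 passed it on day 4 only. Evx1 was the reverse, at day 4 with both hairpins, and Eomes and Fgf8 had the same onset day in all 3 groups. Lhx1 reached it on day 4 with Smarcc1.6 and day 5 with Smarcc1.7, Tbx6 on days 6 and 7, and Gsc in no group. Onset rests on 1 Day0 library and was not tested. For Mesp1, Tbx6 and Lhx1 it turns on the 3-read level of that library, -2.89. On day 4, Mesp1 in Nons and with Smarcc1.6 and Lhx1 in Nons were at -1.99, just short of onset. The comparisons of days 4, 5 and 7 with Day0 cross the change in read assignment.

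The peak fell on day 7 for 9 of 9 regulators in Nons, 7 of 9 with Smarcc1.6 and 4 of 9 with Smarcc1.7. Of tested genes 32.4%, 35.4% and 36.3% were highest on day 7 in these groups, and of genes without the filter 37.1%, 30.2% and 29.8%. Eomes and Evx1 peaked on day 4 with both hairpins, and with Smarcc1.7 Mixl1 and Mesp1 peaked on day 4 and Gsc on day 5. The height of the peak above Day0 was 4.71 for T in Nons, 1.41 with Smarcc1.6 and -0.74 with Smarcc1.7. For Fgf8 it was 7.53, 5.67 and 5.11. These heights set day 7 against Day0, across the change in read assignment. Over the groups together, 4 of the 5 tested regulators changed over days, all but Evx1 (limma, adjusted p = 0.106), beside 84.2% of tested genes. In the alternatives run, that call was lost 3 times for T, 6 times for Eomes and 2 times for Gsc, T without day 7 among them (limma, adjusted p = 0.568). From day 5 to day 7, T rose by 2.79 ± 0.90, Eomes by 1.33 ± 0.36 and Fgf8 by 2.65 ± 0.33 (limma, adjusted p = 0.0178, 0.00750 and 4.67e-05), so 3 of the 5 were called higher, beside 35.1% of tested genes. The call of T was lost without the Nons library of day 5 or day 7 (2.23 and 1.95, limma, adjusted p = 0.0829 and 0.0881) or the Smarcc1.6 library of either day (limma, adjusted p = 0.0536 and 0.0546).

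Levels compared between genes need their lengths. Per kb of exon, on the Nons day 7 library, Fgf8 stood at 85.7 CPM and T at 77.7, followed by Eomes at 26.5 and Mixl1 at 14.4. Mesp1, Evx1, Lhx1 and Gsc formed a lower set at 7.80, 6.98, 6.67 and 4.92, and Tbx6 was at 0.448. On day 4 the order was led by Eomes at 9.16 and Fgf8 at 4.17, with T at 0.848. With 1 library per day, neighbours in this order, such as Fgf8 and T or Evx1 and Lhx1, were not tested against each other.

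**Figure D3:**
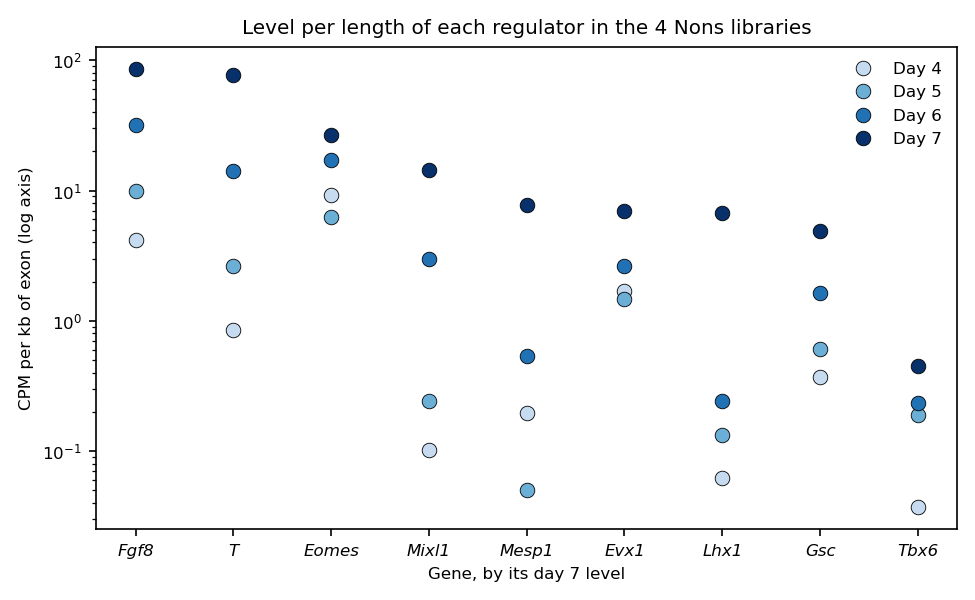
CPM per kb of exon (y axis, log scale) of the 9 regulators in the 4 Nons libraries, 1 point per library and darker with day, ordered by the day 7 level. Day 7 is the top point for every gene, Fgf8 and T share the highest levels and Tbx6 has the lowest at 0.448.

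Whether the knockdown effect differed between days was tested with the product of knockdown and day as factors. Of the 5 tested regulators 3 were called, T, Eomes and Evx1 (limma, adjusted p = 0.0253, 0.0125 and 0.0141), beside 4.11% of tested genes. Fgf8 and Gsc did not pass (limma, adjusted p = 0.0643 and 0.0960). On day 4 both hairpins were above Nons for T, Mixl1, Eomes, Mesp1 and Evx1, by 0.001 for Mesp1 with Smarcc1.6, and 41.9% of tested genes were higher with both that day. None of the 3 calls held without day 4 or with a variance estimate that leaves out the trend on mean expression, and that of T was also lost without either hairpin library of day 6 (limma, adjusted p = 0.0602 and 0.0720).

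Smarcc1.6 and Smarcc1.7 were also fitted apart, in comparisons that share the 4 Nons libraries. Against Nons, only Fgf8 among the 5 was called with either hairpin, at -1.91 ± 0.28 and -1.85 ± 0.28 (limma, adjusted p = 0.00418 and 0.0147), beside 3.71% and 0.768% of tested genes called lower. The Smarcc1.7 call of Fgf8 was lost in 6 of 24 alternatives, among them without day 5, 6 or 7 (limma, adjusted p = 0.0922, 0.139 and 0.0551) or without the Smarcc1.7 library of day 6 or day 7 (limma, adjusted p = 0.0980 and 0.0731). T was at -2.13 ± 0.78 with Smarcc1.6 and -2.87 ± 0.78 with Smarcc1.7 (limma, adjusted p = 0.116 and 0.0777). Between the hairpins, 0 of 13406 genes were called by limma, with 530 at an unadjusted p under 0.05, and 0 by limma-voom on recovered reads, with 658. The difference of Smarcc1.6 from Smarcc1.7 was 0.74 ± 0.78 for T, 0.20 ± 0.31 for Eomes, 0.08 ± 0.46 for Gsc, 0.62 ± 0.55 for Evx1 and -0.06 ± 0.28 for Fgf8. On day 7 all 9 regulators had a lower log2 CPM with Smarcc1.7 than with Smarcc1.6, while Smarcc1 was at 7.51 and 7.28. The median of all tested genes was 4.67 and 4.65 in these 2 libraries. The share of all genes lower with Smarcc1.7 was not counted, and the difference is one of single libraries without a test.

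The genes of the surrounding pathways moved in both directions. Of 11 tested streak-inducing signals, Wnt3, the ligand that starts the streak, was lower over all days (-1.39 ± 0.20, limma, adjusted p = 0.00311), as was Foxh1, and Fgf4, an FGF ligand of pluripotent cells, was higher (1.35 ± 0.23, limma, adjusted p = 0.00565). Nodal itself was at 6.22, 6.49, 6.48 and 6.73 in Nons on days 4 to 7, 7.09, 7.10, 6.28 and 6.51 in the Smarcc1.6 libraries, and 6.84, 6.71, 6.00 and 6.34 in those of Smarcc1.7. Both hairpins were thus above Nons on days 4 and 5 and below it on days 6 and 7, and over all days the difference was 0.13 ± 0.16 (limma, adjusted p = 0.652). Of 8 Wnt target genes, Sp5 and Rspo3 were lower (-2.14 ± 0.59 and -1.74 ± 0.32, limma, adjusted p = 0.0375 and 0.00749) and none was higher. On day 7, 3 of the 8 were lower, with Axin2, a direct Wnt target, at -1.23 and Notum, a Wnt inhibitor, at -1.88.

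Among 11 tested genes of nascent and paraxial mesoderm, Wnt5b was the only one called over all days (-1.38 ± 0.26, limma, adjusted p = 0.00855). On day 7, 4 were lower and 1 higher (4.81% of tested genes called higher), the 4 including the receptors Kdr at -3.87 and Pdgfra at -2.50 (limma, adjusted p = 8.33e-04 and 0.00513). On day 6, 2 were higher (4.18% of tested genes called higher) and 1, Wnt5b, lower. The Notch ligand Dll1 was at 2.07 and the homeobox factor Meox1 at 4.44 (limma, adjusted p = 0.00430 and 0.00157). The Meox1 difference rests on a Nons library at a log2 CPM of -5.14, under its 3-read level of -3.55. Of 8 genes of the epithelial to mesenchymal transition, Cdh2 and Fn1, an adhesion molecule and a matrix protein of mesenchymal cells, were lower over all days (-1.01 ± 0.27 and -0.80 ± 0.23, limma, adjusted p = 0.0324 and 0.0476), and Zeb1 was higher. On day 7, 3 were lower, with Snai1 at -1.37. Of 8 tested anterior streak and endoderm genes, Sox17 was lower (-0.88 ± 0.24, limma, adjusted p = 0.0369) and Otx2 higher. The medians of these 5 lists lay between -0.29 and 0.14 over all days, against -1.23 for the 5 regulators and -0.01 for all tested genes. On day 7 alone they were -1.55 for nascent and paraxial mesoderm, -0.80 for Wnt targets and -0.70 for anterior streak and endoderm. The median was -0.44 for the epithelial to mesenchymal transition and -0.10 for the streak-inducing signals. That day the 5 regulators, Gsc included, had a median of -2.14 and all tested genes 0.008.

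**Figure D4:**
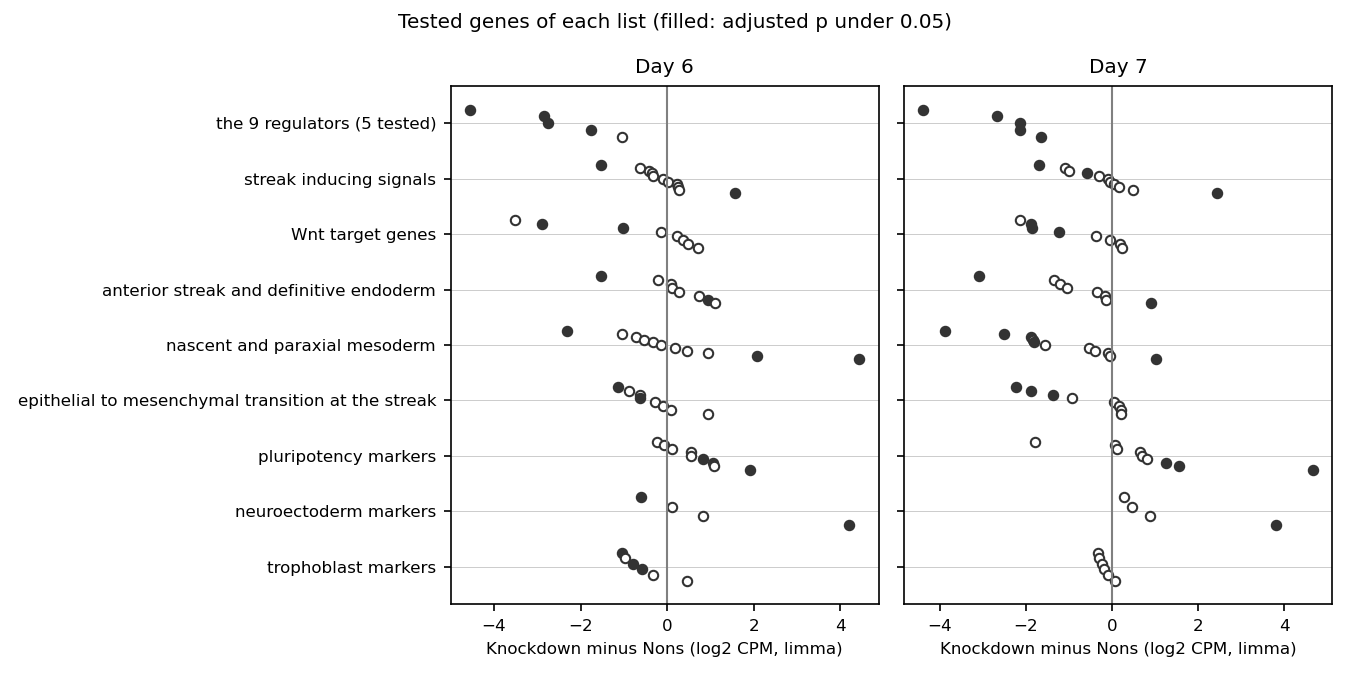
Knockdown minus Nons (x axis, limma log2 difference) on day 6 and day 7 for each tested gene of the lists (rows), filled where the adjusted p was under 0.05. The 5 tested regulators lie between -4.55 and -1.05 on day 6 and between -4.38 and -1.66 on day 7, whereas the other lists lie on both sides of 0, except the neuroectoderm markers on day 7, which are all above it. The -1.05 is Gsc, which passed the filter only through Nons, and the other tested regulators lie at -1.76 or below on day 6.

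Markers of other states also differed between knockdown and Nons, in both directions. Of 9 pluripotency markers 6 were higher with knockdown and none lower, among them Prdm14 (1.62 ± 0.21), Klf4 (1.40 ± 0.29), Zfp42 (1.11 ± 0.15) and Esrrb (1.00 ± 0.16), with limma adjusted p from 0.00193 to 0.0128. On day 7 Nr0b1 had 0 reads in Nons and a log2 CPM of 0.03 and -0.81 with the hairpins. The summed CPM of the 9 was 4689 in Day0. Over days 4 to 7 the ranges overlapped, 1099 to 1737 in Nons, 1353 to 2687 with Smarcc1.6 and 1090 to 2247 with Smarcc1.7. Within days, both hairpins were above Nons on day 4 (2687 and 2247 against 1602) and day 5 (1948 and 1652 against 1472). On day 6 only Smarcc1.7 was above Nons (1846 against 1737), and on day 7 only Smarcc1.6 (1353 against 1099). Of 4 tested neuroectoderm markers Sox1 and Tubb3 were higher over all days (2.07 ± 0.61 and 0.72 ± 0.19, limma, adjusted p = 0.0478 and 0.0318). Pax6 and Nes were not called (0.21 and -0.41, limma, adjusted p = 0.437 and 0.154). On day 6 Nes was called lower (-0.61, limma, adjusted p = 0.0437). The summed CPM of all 7 was 68.7 to 332 in Nons, 79.8 to 399 with Smarcc1.6 and 79.0 to 288 with Smarcc1.7. Of 6 tested trophoblast markers Krt8 was lower over all days (-0.50 ± 0.14, limma, adjusted p = 0.0375). By day, 1 was called higher on day 4 (1.57% of tested genes). Called lower were 2 on day 5 and 3 on day 6 (2.82% and 2.89% of tested genes), and none on day 7. The summed CPM of all 7 listed markers rose with day in each group, from 59.8 to 3723 in Nons, 113 to 3374 with Smarcc1.6 and 80.4 to 2880 with Smarcc1.7. On day 6 it was 1103 in Nons, 646 with Smarcc1.6 and 760 with Smarcc1.7. The part of the markers of other states in the levels of the 9 regulators was not tested.

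Over days, the list genes with the largest rise from day 5 to day 7 were the BMP antagonist Nog (6.00 ± 0.38), Sp5 (5.09 ± 0.66) and the keratin Krt8 (4.47 ± 0.19). The largest falls were in Nr0b1 (-5.08 ± 0.71), Lef1 (-3.45 ± 0.20) and Meox1 (-3.33 ± 0.99), with limma adjusted p of at most 0.0119 for all 6. Across the 12 libraries the genes most like T in their levels were Tasp1, Wnt5b, Itga8, Fst and Mcc, with Pearson r of 0.977, 0.975, 0.938, 0.937 and 0.929. For Fgf8 they were Amot, Ghr, Oxct1, Igfbp3 and Nt5e, with r of 0.980, 0.979, 0.974, 0.974 and 0.972. Between the 9 regulators themselves the 36 pairwise r ran from -0.14 to 0.94 with a median of 0.74. These correlations share days, depth and the Nons libraries and are a description.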

How the data were processed

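RNA was measured in 13 libraries of differentiating female mESCs, grouped by their titles. The authors sequenced TruSeq libraries as 75-base pairs, trimmed them and aligned them to mm10 with FVB/NJ and CAST/EiJ differences masked, using tophat or hisat2 (TopHat2 2.0.12 in the submitters' processing notes). Seqmonk gave the reads of each gene, and the authors deposited log2 CPM with 0 reads written as 0.9 reads. The strand setting and annotation release are not given in the sources used here. Whole reads were recovered from the steps of the low values, 100% of which were whole within 0.02 reads, and gave the depths (13993440 to 63548092 mapped reads). All 13 columns were used.

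Linear models were fitted with limma 3.58.1 in R 4.3.3 (lmFit, eBayes with a trend) to the deposited log2 CPM of the 12 libraries of days 4 to 7, for 13406 genes with a mean of at least 0, with Benjamini-Hochberg adjustment and a threshold of 0.05. The models were knockdown plus day, 3 groups plus day, day as a factor plus group, and knockdown by day. Day0 entered no test. Alternatives changed the filter, the scale, the variance model, the centring, the block by day and the libraries, and used limma-voom on recovered reads. The models of knockdown plus day and knockdown by day were tested on simulated counts. These counts had no change over days in Nons and no difference between the hairpins. Smarcc1 was tested by exact permutation within days. Intervals and the floor of 3 reads cover counting error only, since reads carried no molecular identifiers. Named genes were the 9 regulators, Smarcc1, up to 15 list genes called for knockdown by size of change, 3 rises and 3 falls over days, and the 5 genes most correlated with T and with Fgf8. Foxh1, Otx2, Zeb1, Nodal, Axin2, Notum, Dll1, Kdr, Pdgfra, Snai1, Pax6 and Nes, and Krt8 and Meox1 for knockdown, were named after their values were seen. Coordinates are those of the table, which share mm10 with GENCODE M21, used for exons, lengths and overlaps. Hairpin sequences came from the study's supplementary list. The regulators and lists were chosen with earlier results of these data known. Python 3.11.15, pandas 2.3.3, scipy 1.17.1 and matplotlib 3.10.9 were used.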

Additional observations from a re-analysis of the deposited data

Results flagged for a closer look

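The knockdown effect differed between days for T, Eomes and Evx1 by the test of knockdown by day (limma, Benjamini-Hochberg adjusted p = 0.0253, 0.0125 and 0.0141). The spread in that test comes from the 2 hairpins of a day, with 1 Nons library per day.

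Mixl1 and Mesp1 were higher with both hairpins on day 4 and lower with both on day 7, and the mean hairpin difference on day 7 minus that on day 4 was -5.45 for Mixl1 and -7.20 for Mesp1. These differences were not tested in the reported fit, since both genes were under the filter, and without a filter the test of knockdown by day gave an adjusted p of 0.164 and 0.153 (limma). Of genes without a filter, 15.5% were higher with both hairpins on day 4 and lower with both on day 7.

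T with Smarcc1.6 on day 7, at a log2 CPM of 4.19, stood far from the other 3 days of that group by Dixon's criterion. This was 1 of 27 groups of 4 libraries examined, where chance gives about 1.35, and the 4 libraries of a group are different days.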

How the results depend on the processing

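Of 1369 recomputed values 1186 kept their direction and side of the threshold or, for counts and untested values, stayed near the main value. Among the regulators' 1139 recomputed values 84 lost a call, 36 gained one and 6 changed sign, none of these past the threshold (limma adjusted p from 0.655 up). With 1 library left out, T on day 5 minus day 4 ran from -0.49 to 1.45 (main 0.70), Gsc for knockdown on day 4 from -0.092 to 0.106 (main 0.0069), Evx1 for knockdown on day 5 from -0.44 to 0.0079 (main -0.22) and Evx1 on day 7 minus day 5 from -0.035 to 1.01 (main 0.60). Gsc for knockdown on day 4 was -0.017 with libraries centred on their medians, and Gsc with Smarcc1.7 was 2.7e-06 without day 7 (main -0.66). The day 6 and day 7 calls of T, Eomes, Evx1 and Fgf8 were kept in all 18 alternatives run for them, and Gsc lost its day 7 call without the day 7 Smarcc1.7 library (Gsc, limma adjusted p = 0.0821). Leaving out a Nons library could not be fitted in the model by day. Over all days, T, Eomes and Fgf8 were called in the reported fit, and 1 regulator was called without day 5, 6 or 7, without the trend in the variance or with Smarcc1.6 alone, and 0 with Smarcc1.7 alone, and 1 to 4 with 1 library left out. Genes called for knockdown, 1561 in the reported fit, were 386 without day 5, 287 without day 6, 57 from Smarcc1.6 and Nons alone and 0 from Smarcc1.7 and Nons alone (limma, 2363 unadjusted), and 611 to 2003 with 1 library left out. Without the replicate block, which here is the day, 4 genes were called for knockdown and 0 for either hairpin, and the difference of Smarcc1 kept its value of -1.06 (exact permutation p = 0.00404). Since days mark shared culture time and no numbered replicates exist, days alone pair the libraries. The 1247 genes called for Smarcc1.6 were 178 without day 5 and 202 without day 6, and 352 to 1694 with 1 library left out. The 329 for Smarcc1.7 were 145 without the trend, 188 at a filter of 2, 573 without day 4, 1 without day 5, 1 without day 6, and 6 to 1052 with 1 library left out. The 551 for knockdown by day were 116 without the trend, 110 without day 4, 279 without day 6, and 249 to 965 with 1 library left out, and the regulators among them were 3 in the reported fit, 0 without the trend or day 4 and 5 on log2(CPM + 1). The cause was not tested. Onset pairs over the 3 groups were 22 in the main setting, 19 at 2 log2 units and 16 on log2(CPM + 1). Depth limits Tbx6 and Mesp1, with 0 to 4 reads in several libraries.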
